A study of Mus musculus with 66 samples.

Results

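The collagen gene family was followed through mouse lung development with and without the transcription factor Nrf2. The members were all genes to which the array platform gave a single symbol of the form Col, a number, a and a number, such as Col1a1. This rule took 42 of the 18193 genes with a single symbol. Each gene was represented by its brightest probe set, the one with the highest mean signal over all 66 arrays, out of the 82 probe sets that carried a collagen symbol. The members comprised 8 fibrillar collagen genes, 9 genes of basement membrane collagens, 7 cartilage collagen genes and 18 others, and 33 of the 42 had a mean signal of 100 or more.

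Total RNA of homogenised lung was measured on single-colour Affymetrix expression arrays, 1 array per sample. The Nrf2-/- (KO) group and the Nrf2+/+ (WT) group each held 33 samples, 3 at each of 11 ages: the embryonic days 13.5 (written E13.5), 15.5, 17.5 and 18.5, the neonatal days 0 (written PND0) to 4, the juvenile day 14 (PND14) and the adult day 42 (PND42). All mice came from timed matings, and dams and pups of both genotypes had the same feed. The labels describe the 3 samples of a group as biological replicates, each from 1 lung except at E13.5, where 2 or 3 lungs were combined per sample. The genotype is given for the whole animal, and the lung was measured whole, so a difference cannot be assigned to a cell type.

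Collagens are triple-helical proteins built from 3 alpha chains, and each gene encodes 1 such chain. Fibrillar collagens (types I, III and V) form the load-bearing fibrils around airways and vessels, type IV collagen forms the sheet of the basement membrane on which lung epithelium and capillaries rest, and type II, IX and XI collagens build cartilage, which in the lung lies in the trachea and large bronchi. As the saccules and alveoli form, epithelial and capillary basement membranes fuse into the thin barrier for gas exchange, whose type IV network is rich in the chains of Col4a3, Col4a4 and Col4a5. Nrf2 binds antioxidant response elements in DNA and switches on detoxifying and antioxidant genes.

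Values below are log2 signals, log2 of the quantile-normalised signal plus 16, which understates the change of dim genes. A difference of 1 is a doubling of that quantity. Differences were tested with limma across 45037 probe sets, and "rose", "fell" or "called" is used for a Benjamini-Hochberg adjusted p under 0.05. Signals of different probe sets were not compared, because each probe set has its own brightness. Nfe2l2, the gene of Nrf2, read 4.41 to 8.26 in the 33 KO libraries (median 5.35) and 10.49 to 12.25 in the 33 WT libraries (median 11.63), so every library matched its genotype label. The epithelial marker Sftpc, the gene of surfactant protein C, read at least 10.97 in every library.

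Several libraries stood apart. The 24 arrays of PND1 to PND4 were on another scale than the other 42 as deposited (2% trimmed mean signals of 171.7 to 307.1, against 500 on each of the 42), so age steps were taken only within PND1 to PND4 or within the other 7 ages. The KO libraries labelled E17.5 and E18.5 went against the order of ages seen in WT. The mean log2 signal of 7 alveolar type 1 cell markers was 12.29 to 12.41 in the KO libraries labelled E17.5 and 11.23 to 11.77 in those labelled E18.5, whereas WT had 11.72 to 12.07 at E17.5 and 12.40 to 12.80 at E18.5. Collagen results at these ages are therefore given for libraries by their label, and also with the WT age exchanged. Those of the other gene lists are given by label only. WT E13.5 replicate 2 had the highest mean of all libraries for 11 cartilage markers (9.11) and for 5 bone markers (8.74). WT PND14 replicate 2 had a cell cycle marker mean of 11.44, against 8.63 and 9.20 in the other WT PND14 libraries. The mean of 7 liver markers was 12.43 in WT PND1 replicate 2, and 14.41 and 10.6 in WT PND2 replicates 2 and 3. It was 12.9 and 10.25 in WT PND3 replicates 2 and 3, 12.76 in WT PND4 replicate 3 and 11.68 in KO PND2 replicate 3. Every other library had 9.37 or less. KO PND3 replicate 2 had means of 12.72 for 8 skeletal muscle markers and 7.78 for 5 bone markers. The part of liver, muscle and bone markers in the PND1 to PND4 results was not tested.

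Most collagen genes changed with age. In WT lung, 33 of the 42 changed over the 7 ages of the larger array set (53.3% of all probe sets did), and 8 of 42 changed between PND1 and PND4 (11.2% of probe sets). Every gene of the basement membrane group changed over the 7 ages, as did 6 of 7 cartilage, 5 of 8 fibrillar and 13 of 18 other genes. Signal spanned widest for the cartilage gene Col2a1, between 4.35 and 13.02 over the 66 libraries, and narrowest for the brightest probe set of the fibrillar gene Col3a1, between 13.95 and 14.83. Among those 7 ages the highest KO group mean lay at E13.5 for 3 of 7 cartilage, 1 of 8 fibrillar and 1 of 9 basement membrane genes. In WT it lay there for 6 of 7 cartilage, 6 of 8 fibrillar and 0 of 9 basement membrane genes. The heat map of group means shows these courses for both genotypes.

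**Figure D1:**
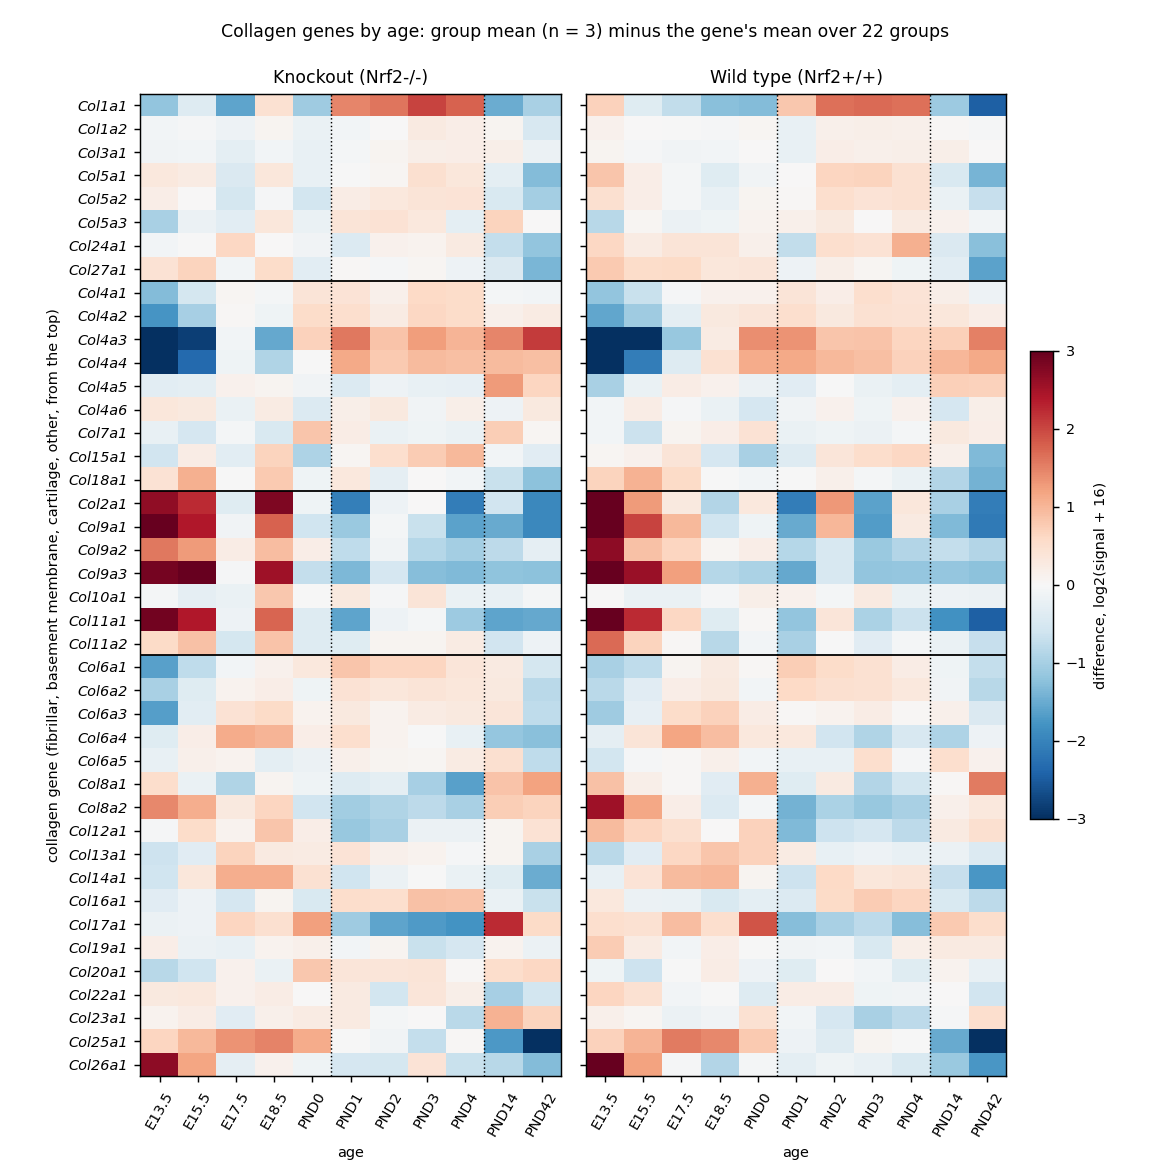
Group means of the 42 collagen genes by age, KO in the left panel and WT in the right; colour gives the group mean (n = 3) minus the gene's mean over the 22 groups on the log2 scale, limited to 3 in either direction. Dotted lines enclose PND1 to PND4, the separately scaled arrays. Outside them, the highest WT group mean lies at E13.5 for 6 of 7 cartilage genes. In KO it lies at E13.5 for 3, at E15.5 for 2 and at the E18.5 label for 2.

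Genotype differences depended on age. Averaged over the 11 ages, 3 of the 42 genes differed between KO and WT, 2 higher and 1 lower (10.6% of all probe sets; 5.29% higher and 5.27% lower), and a dependence of the genotype difference on age was called for 17 of 42 (28.3% of probe sets). The 3 were small: Col20a1 was 0.29 higher in KO (SE 0.08, adjusted p 0.0074), Col23a1 0.26 higher (SE 0.07, adjusted p 0.012) and Col5a2 fell by 0.18 (SE 0.05, adjusted p 0.011). Of 6 other probe sets of these genes, all had the same sign and 0 were called. They gave 0.38, 0.41 and 0.07 for Col20a1, 0.05 and 0.11 for Col23a1 and -0.12 for Col5a2. On the deposited scale 0 genes were called higher and 5 lower on average. Age by age, the number of collagen genes called was 5 of 42 at E13.5 (1.53% of probe sets), 0 at E15.5 (0.127%), 2 at E17.5 (1.23%) and 12 at E18.5, 10 higher and 2 lower (8.74%; 4.7% higher and 4.04% lower). After birth it was 4 at PND0 (10.7%), 1 at PND1 (2.04%), 1 at PND2 (5.96%), 2 at PND3 (8.09%), 0 at PND4 (0.484%), 2 at PND14 (8.2%) and 4 at PND42 (5.68%). The count stood above the share of probe sets at E13.5, where it dropped to 1 without WT replicate 2 or KO replicate 1, and at E18.5. At E17.5 it was 0 or 1 with any library left out, and at PND42 it was 2 to 4. The second brightest probe sets gave 2 at E13.5 and 0 at PND42, but they could not count Col15a1, which has 1 probe set. The counts at E17.5 and PND42 are too small to be read against the share. Of all 33 calls at single ages, 11 held without each library in turn. By an unadjusted p under 0.05, limma counted 0 of 42 at E15.5 and 6 of 42 at PND4. Most probe sets are dim, while 33 of the 42 members had a mean signal of 100 or more, so these shares are not matched for brightness. Fitted on the 6 libraries of an age alone, the count was 0 at E13.5 and 4 at E18.5. Together the 33 calls fell on 22 genes, 19 upward and 14 downward in KO. Calls in both directions at different ages fell on 5 genes (Col1a1, Col12a1, Col18a1, Col4a3 and Col8a2). In each of these but Col1a1, at least 1 of the opposing calls lay at the doubted E17.5 or E18.5 labels. With the WT age exchanged, 0 collagen genes were called at either label. Without E17.5 and E18.5, the dependence on age was called for 10 genes.

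**Figure D2:**
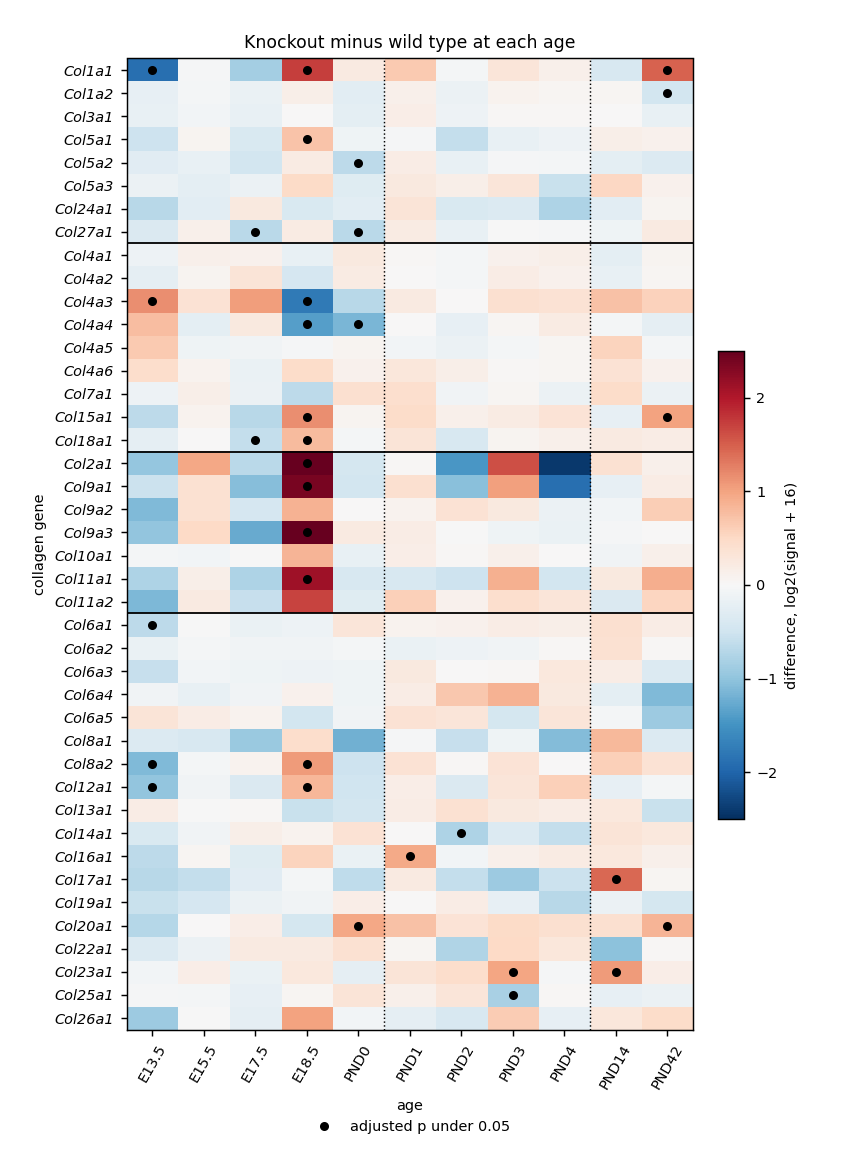
KO minus WT difference of each collagen gene at each age on the log2 scale, limited to 2.5 in either direction, with dots where the adjusted p was under 0.05. Calls gather at the doubted E18.5 label, where 10 are upward and 2 downward, and none stand at E15.5 or PND4. Without KO replicate 1 the count at that label was 5, and against WT E17.5 it was 0.

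Among the basement membrane genes, Col4a1 and Col4a2 encode the chains of the type IV network found in nearly all basement membranes. The pair lies on opposite strands of chromosome 8 with start sites 21 bases apart. The plus-strand Col4a2 start (11312805) lies before the minus-strand Col4a1 start (11312826), so the annotated transcripts overlap at their 5′ ends. Their RefSeq windows (GRCm38.p6, 250 bases before to 50 after each start) overlap too. Col4a1 is on the minus strand at chr8:11312777-11313076 and Col4a2 on the plus strand at chr8:11312555-11312854, each written 5′ to 3′. Capitals mark the 78 bases they have in common, read from opposite strands.
Col4a1: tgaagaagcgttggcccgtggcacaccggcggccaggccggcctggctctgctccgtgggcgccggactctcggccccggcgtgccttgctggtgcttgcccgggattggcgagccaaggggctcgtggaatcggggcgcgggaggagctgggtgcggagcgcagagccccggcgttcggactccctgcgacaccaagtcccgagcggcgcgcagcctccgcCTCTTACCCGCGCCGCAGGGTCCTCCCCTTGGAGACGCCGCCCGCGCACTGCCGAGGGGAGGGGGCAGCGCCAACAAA
Col4a2: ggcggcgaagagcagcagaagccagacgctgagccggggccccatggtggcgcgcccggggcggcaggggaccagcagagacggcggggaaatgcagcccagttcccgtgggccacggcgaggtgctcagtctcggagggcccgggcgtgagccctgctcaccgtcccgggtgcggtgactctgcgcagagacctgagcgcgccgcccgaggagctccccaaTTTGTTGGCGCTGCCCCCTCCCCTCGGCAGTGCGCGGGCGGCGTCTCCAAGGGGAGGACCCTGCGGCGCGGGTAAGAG

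Both genes rose before birth. Col4a1 had 14.10, 14.04 and 13.86 in WT libraries at E18.5, against 12.80, 12.52 and 12.76 at E13.5, a difference of 1.31 (SE 0.11, adjusted p 2.3e-14). Col4a2 had 13.49, 13.48 and 12.93 at E18.5, against 11.77, 11.37 and 11.25 at E13.5, a difference of 1.84 (SE 0.16). Every E18.5 library lay above every E13.5 library for both genes. In KO the same step was 1.25 for Col4a1 and 1.65 for Col4a2, also called. No genotype difference was called for either gene at any age, and their largest were -0.42 for Col4a2 at E18.5 (adjusted p 0.086) and 0.25 for Col4a1 at PND0.

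Col4a3 and Col4a4, which encode the chains of the specialised network of alveolar and glomerular basement membranes, had the steepest increase of the family. Over the 4 embryonic ages, PND0, PND14 and PND42, in that order, the WT mean of Col4a3 was 5.04, 6.31, 8.37, 9.75, 10.90, 10.23 and 11.02, and that of Col4a4 was 7.52, 9.45, 11.15, 11.99, 12.65, 12.53 and 12.65. At E18.5 WT libraries had 9.95, 10.27 and 9.03 for Col4a3, against 5.16, 4.53 and 5.45 at E13.5, a difference of 4.70 (SE 0.29, adjusted p 7.3e-19). For Col4a4 they had 12.13, 12.49 and 11.36, against 8.11, 6.60 and 7.86, a difference of 4.47 (SE 0.30, adjusted p 9.1e-18). No library of one age reached the values of the other in either gene. Col4a5, whose chain joins the same network, rose by 1.09 over this step in WT and again by 0.88 between PND0 and PND14 (-0.01 by a second probe set), and Col4a6, a partner of Col4a5 in airway and smooth muscle basement membranes, was not called before birth and rose by 0.68 between PND14 and PND42. The panels of type IV chains by library show the rise of Col4a1 to Col4a5 before birth in WT and the flatter course of Col4a6.

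**Figure D3:**
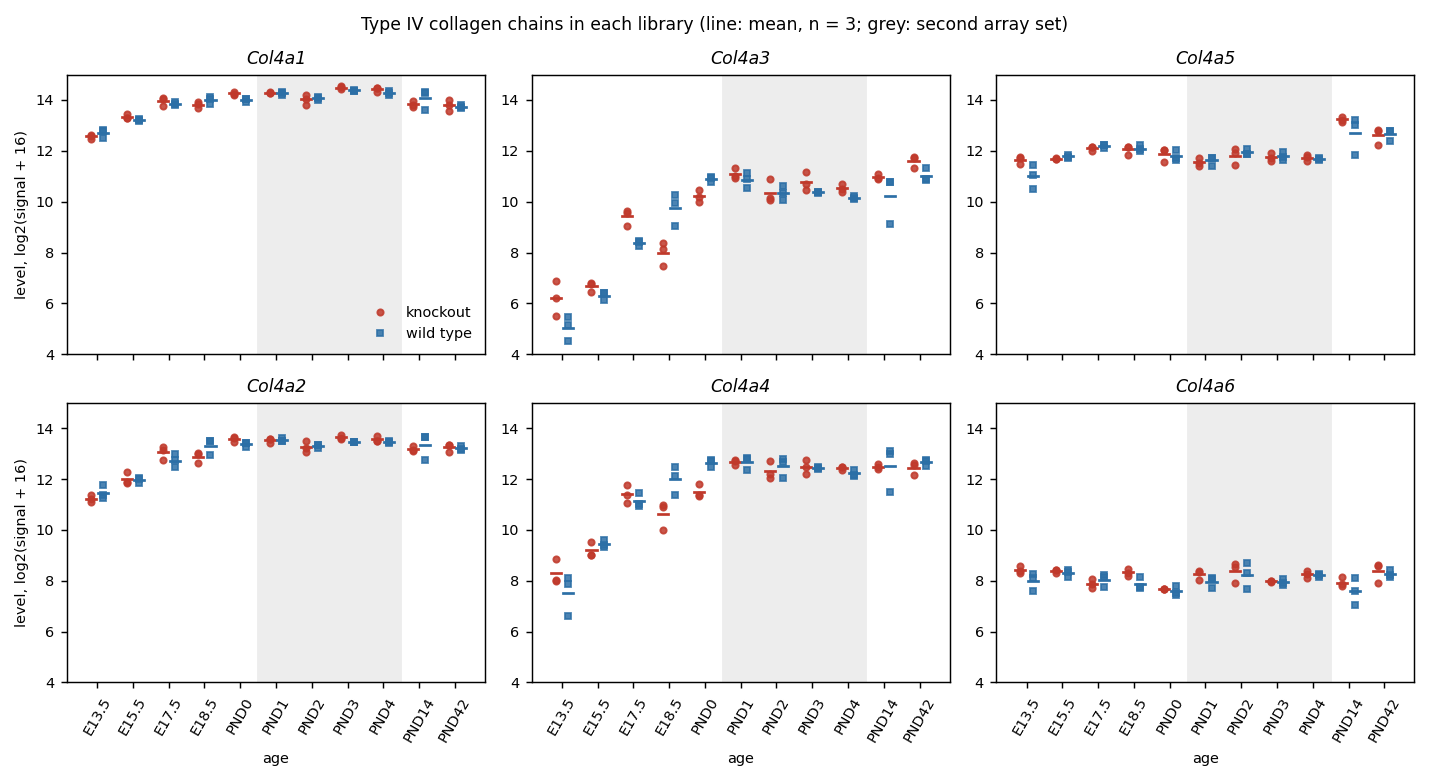
Log2 signal of the 6 type IV collagen genes in every library by age, KO points drawn left of WT points, with the separately scaled arrays of PND1 to PND4 in grey. Col4a3 and Col4a4 climb by more than 4 between E13.5 and E18.5 in WT, and their KO points at the E18.5 label lie below the WT points.

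KO and WT differed in this pair at several ages, in opposite directions. At E13.5 Col4a3 had 6.88, 5.51 and 6.23 in KO, against 5.16, 4.53 and 5.45 in WT, a difference of 1.16 (SE 0.29, adjusted p 0.023). All 3 KO libraries were above all 3 WT libraries, the closest pair nearly touching, and the call did not hold without WT replicate 1 or 2, or without KO replicate 1 or 3. A second Col4a3 probe set gave 1.34 (adjusted p 0.0037). Alveolar type 1 cell markers moved with it: 4 of 7 were higher in KO (Ager by 2.30). Their mean was 8.92 to 10.46 in KO libraries and 8.56 to 8.86 in WT libraries, and their part in the result was not tested. The mean of 5 lung epithelium markers was 8.86 to 11.32 in KO libraries and 7.36 to 7.96 in WT libraries. WT E15.5 libraries had 8.89 to 9.57. Endothelial marker means overlapped at E13.5 (9.43 to 10 in KO and 9.39 to 9.73 in WT). Whether the E13.5 groups were of the same stage was not tested, which bears on all genotype results at E13.5. In whole lung, fewer cells of a type and less RNA per cell cannot be told apart.

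In libraries labelled E18.5, Col4a3 had 7.45, 8.36 and 8.14 in KO, against 9.95, 10.27 and 9.03 in WT, so that it fell by 1.77 (SE 0.29, adjusted p 4.3e-05). Col4a4 had 10, 10.97 and 10.91 in KO, against 12.13, 12.49 and 11.36 in WT, and fell by 1.37 (SE 0.30, adjusted p 0.0017). KO libraries were below all WT libraries in both genes, and the other probe sets gave -1.78 for Col4a3 and -1.46 and -1.29 for Col4a4, all called. The Col4a4 call did not hold without KO replicate 1. Alveolar type 1 cell markers were lower in KO for 5 of 7, with means of 11.23 to 11.77 in KO and 12.40 to 12.80 in WT. Set against WT E17.5, the KO libraries labelled E18.5 differed by -0.39 in Col4a3 (adjusted p 0.81) and -0.52 in Col4a4. With that exchange of WT age no collagen gene was called (0.253% of probe sets were), and none was called between the KO libraries labelled E17.5 and WT E18.5 (0.81% of probe sets).

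At PND0, outside the doubted labels, Col4a4 had 11.36, 11.82 and 11.33 in KO, against 12.75, 12.49 and 12.70 in WT, and fell by 1.14 (SE 0.30, adjusted p 0.0066). Every KO library was below every WT library, both other Col4a4 probe sets were called in the same direction (-1.18 and -0.75), and the call held without each library in turn. Alveolar type 1 cell markers were lower in KO for 3 of 7 at this age and higher for 0, with means of 11.98 to 12.11 in KO and 12.39 to 12.61 in WT, and their part in the result was not tested. Col4a3 had 9.99, 10.47 and 10.17 in KO and 10.93, 10.78 and 10.98 in WT at this age, again without overlap, but was not called.

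Between PND0 and PND14 the KO and WT steps differed for Col4a3, by 1.43 (adjusted p 0.023), and for Col4a1, by -0.49 (adjusted p 0.038). Neither difference was called without KO or WT PND0 replicate 3, and that of Col4a3 was not called without WT PND14 replicate 2. Col4a3 rose by 0.76 in KO, with 10.92, 11.07 and 10.91 at PND14, against 9.99, 10.47 and 10.17 at PND0. In WT it had 10.78, 9.14 and 10.77 at PND14, against 10.93, 10.78 and 10.98 at PND0, so the WT mean at PND14 rests on 1 low library, replicate 2. The second Col4a3 probe set gave -0.27 for the KO step. With the Gapdh 3′ to 5′ signal ratio, a measure of RNA integrity, as a covariate, the KO step was -0.67: that ratio was 0.77 to 1.38 in KO and 0.24 to 1.01 in WT at PND14 on the log2 scale, and below 0 in every group before PND14.

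Col15a1 and Col18a1, whose proteins link basement membranes to the surrounding matrix and, for Col18a1, give rise to the angiogenesis inhibitor endostatin, differed in both directions. In libraries labelled E18.5 Col15a1 had 8.87, 8.53 and 8.65 in KO, against 7.53, 7.35 and 7.67 in WT, a rise of 1.17 (SE 0.21, adjusted p 0.00018). Col18a1 had 11.26, 11.34 and 11.37 in KO, against 10.59, 10.39 and 10.57 in WT, a rise of 0.80 (SE 0.14, adjusted p 7.2e-05). Both groups of 3 were tight and far apart, and both calls held without each library in turn. In libraries labelled E17.5 Col18a1 had 10.52, 10.55 and 10.49 in KO, against 11.23, 11.09 and 11.00 in WT, and fell by 0.59 (SE 0.14, adjusted p 0.013); the call did not hold without WT replicate 1 or 2 or without any 1 of the KO libraries, and against WT E18.5 the difference was 0. With the exchange at the later label, Col15a1 differed by 0.29 and Col18a1 by 0.21, neither called.

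Col15a1 was also higher in adult KO lung. At PND42 it had 7.45, 7.87 and 7.73 in KO, against 6.39, 7.10 and 6.57 in WT, a rise of 1.00 (SE 0.21, adjusted p 0.0013). All KO libraries were above all WT libraries, and the call held without each library in turn. In WT Col15a1 fell by 1.48 between PND14 and PND42, and the KO step differed from that by 1.21 (adjusted p 0.027). The difference of steps was not called without WT PND42 replicate 1 (1.06, adjusted p 0.093) or 3, KO PND14 replicate 1, or KO PND42 replicate 2 or 3. Col15a1 also rose between PND1 and PND4 in both genotypes, by 0.90 in KO and 1.01 in WT. Col7a1, which encodes the anchoring fibril chain, was not called between genotypes at any age, and its largest difference was -0.66 at E18.5.

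Among the fibrillar genes, how far the signal moved depended on the probe set. By its brightest probe set (mean signal 17800) Col1a2, a chain of type I collagen, stayed between 13.59 and 14.55 over all 66 libraries, and by its own (mean signal 21700) Col3a1, the type III chain abundant in lung and vessel walls, between 13.95 and 14.83. Their second probe sets moved further, with group means from 12.07 to 13.89 for Col1a2 and from 11.44 to 12.98 for Col3a1. Between PND14 and PND42 in KO the second probe sets fell by 1.59 for Col1a2 and 1.54 for Col3a1, where the brightest fell by 0.57 and 0.35. Between PND0 and PND14 in KO Col3a1 rose by 1.22 by the second probe set and by 0.40 by the brightest. In WT, 4 of 8 fibrillar genes fell between E13.5 and E18.5: Col1a1 by 1.96 (SE 0.33, adjusted p 3e-06), Col5a1 by 1.20, Col5a2 by 0.71 and Col27a1 by 0.46, the last not called without WT E13.5 replicate 1 or 2 or WT E18.5 replicate 1 or 3. Second probe sets gave -0.67 for Col1a1, -0.58 for Col5a1, -0.53 for Col5a2 and -1.02 for Col27a1 over this WT step, all called. A further Col5a1 probe set gave -0.44, not called. Type V chains (Col5a1, Col5a2) limit fibril diameter, and Col27a1 encodes a minor fibrillar chain of developing cartilage. Over the whole family this step was called for 29 of 42 genes, 12 higher and 17 lower (35.1% of probe sets; 16.4% higher, 18.6% lower), and in KO for 16 of 42, 15 higher and 1 lower (21.6% of probe sets; 10.4% higher, 11.2% lower). The KO step itself differed from the WT step for 13 of 42 genes, 11 upward and 2 downward (6.2% of probe sets; 3% upward and 3.2% downward). That count uses the KO libraries labelled E18.5 and the E13.5 libraries, and it was 8 without WT E13.5 replicate 2. Taken as PND0 minus E15.5, which replaces both ages, the steps differed for 1 of 42 genes. The direction turned for 10 of the 13. Because both ages change, this does not show which of them the count depends on.

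Col1a1, the main type I chain, was called at more ages than any other fibrillar gene. At E13.5 it had 10.56, 10.38 and 10.84 in KO, against 12.96, 12.77 and 11.71 in WT, and fell by 1.89 (SE 0.33, adjusted p 0.00053). In libraries labelled E18.5 it had 13.03, 11.45 and 12.22 in KO, against 10.56, 10 and 10.99 in WT, a rise of 1.72 (SE 0.33, adjusted p 0.00044). At PND42 it had 9.98, 11.19 and 11.28 in KO, against 9.32, 9.50 and 9.20 in WT, a rise of 1.48 (SE 0.33, adjusted p 0.0026). At each of the 3 ages the groups did not overlap. Bone markers moved with Col1a1 at E13.5 and E18.5: the mean of 5 was 6 to 6.19 in KO and 6.4 to 8.74 in WT at E13.5, and 6.44 to 7.71 in KO and 5.86 to 5.94 in WT at E18.5. At PND42 the ranges overlapped (5.17 to 5.68 in KO and 5.23 to 5.49 in WT), and the part of these markers in the result was not tested. Between PND14 and PND42 Col1a1 fell by 1.35 in WT, and the KO step differed from it by 1.88 (adjusted p 0.029), which was not called without replicate 1 or 3 of WT PND42, replicate 3 of KO PND14 or replicate 2 or 3 of KO PND42.

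The second Col1a1 probe set did not give these calls. It differed between KO and WT by -0.57 at E13.5 (adjusted p 0.31), by 0.50 at E18.5 (adjusted p 0.26) and by 0.12 at PND42 (adjusted p 0.89), and for the step between PND14 and PND42 it gave -0.16 (adjusted p 0.91). In WT its means at E13.5, PND0, PND1, PND14 and PND42 were 12.47, 12.23, 11.36, 12.32 and 10.62, whereas those of the brighter probe set were 12.48, 10.49, 12.60, 10.69 and 9.34. The brighter set thus stood higher on the separately scaled arrays of PND1 to PND4 than at PND0 and PND14, and the second did not. Which probe set follows the transcript more closely was not tested, and Col1a2, the partner chain of Col1a1 in type I collagen, had no call at E13.5 or E18.5. The plot of fibrillar genes by library sets the 2 Col1a1 probe sets beside Col1a2 and Col3a1.

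**Figure D4:**
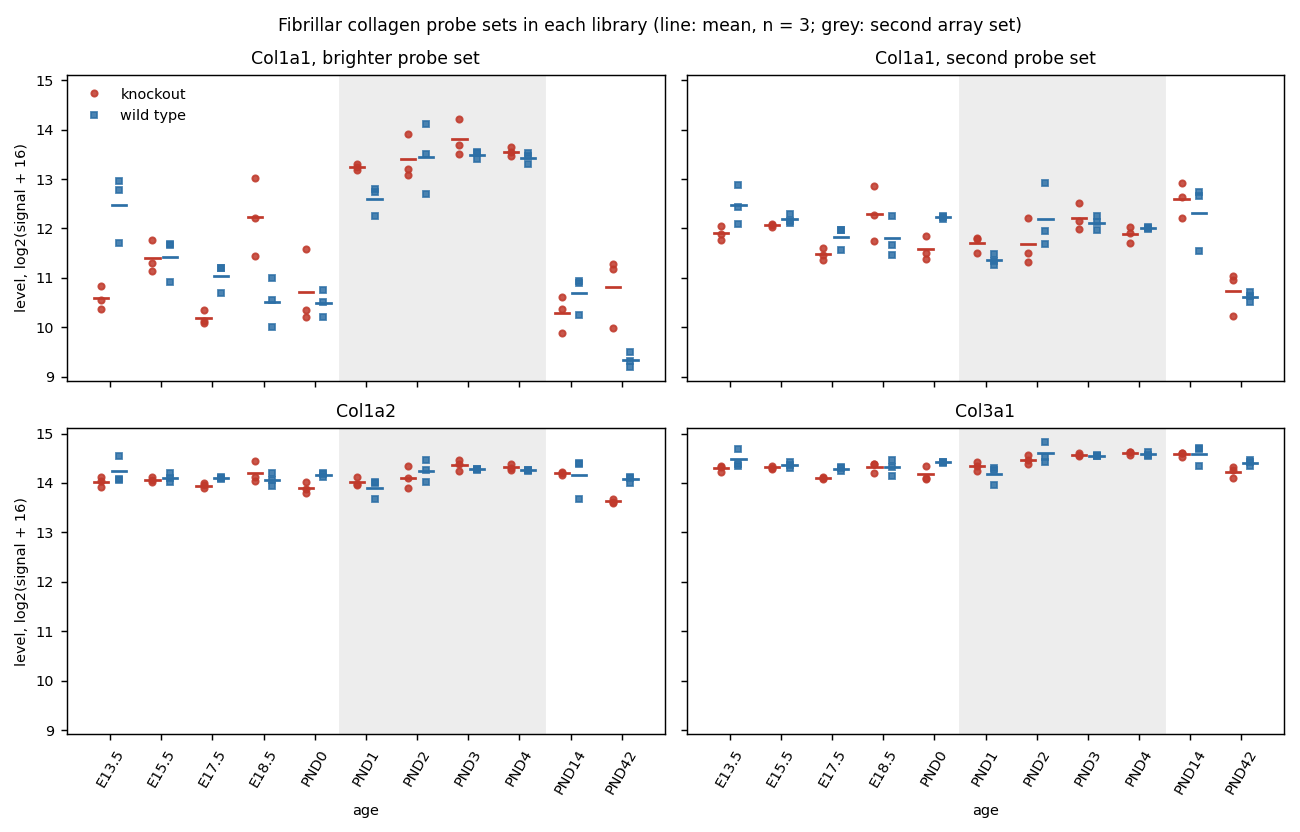
Log2 signal by library and age for the brighter and the second Col1a1 probe set, Col1a2 and Col3a1, KO left of WT, with PND1 to PND4 in grey. The brighter Col1a1 probe set jumps at PND1 to PND4 and separates KO from WT at E13.5, E18.5 and PND42; the second shows no such jump and smaller differences that were not called, and the brightest probe sets of Col1a2 and Col3a1, those plotted, stay within about 1 unit.

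Col1a2 fell slightly in adult KO lung, with 13.59, 13.67 and 13.62 in KO, against 13.99, 14.13 and 14.10 in WT at PND42, a difference of -0.45 (SE 0.12, adjusted p 0.018). The 3 KO values were close together and below all WT values, but a second probe set gave -0.11 (adjusted p 0.85) and the call did not hold without WT replicate 2 or 3 or KO replicate 1 or 3. At PND0 Col5a2 had 12.23, 12.08 and 11.93 in KO, against 12.84, 12.70 and 12.64 in WT, and fell by 0.65 (SE 0.16, adjusted p 0.0052), with -0.48 in another probe set (adjusted p 0.062). Col27a1 fell by 0.67 at the same age (SE 0.17, adjusted p 0.0049), with 9.46, 9.96 and 9.57 in KO, against 10.45, 10.08 and 10.48 in WT. No KO library reached a WT library for either gene. Of 8 fibroblast markers at PND0, 1 was higher in KO (Pdgfra by 0.66) and 2 lower (Meox2 by -2.23, Gli1 by -0.92), with means of 10.37 to 10.54 in KO and 10.97 to 11.16 in WT, and their part in the result was not tested.

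Col27a1 was lower in KO libraries labelled E17.5 as well, with 9.98, 10.08 and 9.64 in KO, against 10.51, 10.44 and 10.76 in WT, a difference of -0.67 (SE 0.17, adjusted p 0.03), and of -0.42 against WT E18.5 (adjusted p 0.34). The call was kept when KO replicate 2 was left out and was lost without any of the other 5 libraries. Col5a1 rose by 0.71 in KO libraries labelled E18.5 (SE 0.22, adjusted p 0.033), with 12.18, 11.42 and 11.73 in KO, against 10.95, 10.86 and 11.41 in WT with the closest libraries nearly touching, and the call did not hold without KO replicate 1 or 3 or WT replicate 1 or 2. Col3a1, Col5a3 and Col24a1 were not called between genotypes at any single age, and the largest of their differences was -0.78 for Col24a1 at PND4.

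After birth, 0 of 8 fibrillar genes in KO (3 by limma's unadjusted p under 0.05) and 3 of 8 in WT rose between PND1 and PND4, and 5 of 8 in KO and 4 of 8 in WT fell between PND14 and PND42. Between PND1 and PND4 in WT, 7 of 42 collagen genes were called, 6 higher and 1 lower (9.78% of probe sets; 5.03% higher and 4.76% lower), among them Col24a1, up by 1.80, Col3a1 by 0.41 and Col1a2 by 0.37. The Col3a1 and Col1a2 calls did not hold on the deposited scale or with array medians subtracted, and that of Col1a2 not without 5 of the 6 libraries one at a time. WT Col24a1 had 6.92, 7.08 and 8.02 at PND4, against 5.18, 5.57 and 5.88 at PND1, with no overlap between the ages. In KO 3 of 42 were called over this step, 2 higher and 1 lower (7.9% of probe sets; 3.99% higher and 3.9% lower), and the steps of the genotypes differed for 0 of 42 (0.0622% of probe sets; 3 of 42 by limma's unadjusted p under 0.05). Between PND14 and PND42, 14 of 42 were called in WT, 2 higher and 12 lower (14.8% of probe sets; 7.36% higher and 7.41% lower), and 15 of 42 in KO, 0 higher and 15 lower (12% of probe sets; 6.13% higher and 5.85% lower). In both genotypes the calls leaned toward lower values, unlike those over all probe sets, although a fit of the compared groups alone called 0 in WT. The Gapdh 3′ to 5′ ratio moved over the same step, with 0.43 to 0.66 at PND42 against 0.77 to 1.38 at PND14 in KO, and 0.06 to 0.45 against 0.24 to 1.01 in WT. With it as a covariate 6 genes were called in KO, 1 higher and 5 lower, and 10 in WT, 4 higher and 6 lower. Col5a1 fell by 0.99 in KO and 0.96 in WT, Col5a2 by 0.58 in KO and 0.47 in WT, and Col27a1 by 0.94 in KO and 1.27 in WT. With the covariate, Col27a1 in WT was the only call kept among these.

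Among the 7 ages, cartilage genes had their highest group mean at E13.5 for 3 of 7 genes in KO, with 2 at E15.5 and 2 at the E18.5 label, and for 6 of 7 in WT. Between E13.5 and E18.5 in WT, 6 of the 7 fell, with a median of -4.03 against -0.07 over all genes. Col2a1, the main cartilage fibril chain, had 5.89, 6.22 and 7.25 at E18.5, against 10.87, 12.75 and 9.32 at E13.5, a difference of -4.53 (SE 1.00, adjusted p 0.00022). Col9a3, a chain of the type IX collagen that coats type II fibrils, had 4.66, 4.67 and 5.90 at E18.5, against 9.86, 11.49 and 7.98 at E13.5, a difference of -4.70 (SE 0.66, adjusted p 4.5e-08). The ages did not overlap in either gene, and within E13.5 replicate 2, the library highest in cartilage and bone markers, was the highest in both. Col9a1 fell by 4.13, Col11a1, which forms the core of cartilage fibrils with type II, fell by 4.03, Col9a2 fell by 2.62 and Col11a2 fell by 2.54. Col10a1, made by hypertrophic chondrocytes, had a mean signal of 6.70 and was not called. Beside these, 8 of 11 cartilage markers fell and 1 rose over the same step (median -1.47).

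In KO none of the 7 was called over that step, with a median of -0.31, and the KO step differed from the WT step for Col2a1 by 4.66 (adjusted p 0.035), Col9a3 by 4.39 (adjusted p 0.0014), Col11a1 by 2.87 (adjusted p 0.045) and Col11a2 by 2.82 (adjusted p 0.028). The differences of Col2a1, Col11a1 and Col11a2 were not called without KO replicate 1 labelled E18.5 or without WT E13.5 replicate 2. A second probe set gave 2.15 for Col9a3 and 2.59 for Col11a1, neither called. In the libraries labelled E18.5, 4 of the 7 cartilage genes rose in KO, with a median difference of 2.11 and a range of 0.84 to 3.69, against a median of 0.02 over all genes.

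Col2a1 had 13.02, 8.78 and 8.62 in KO libraries labelled E18.5, against 5.89, 6.22 and 7.25 in WT, a rise of 3.69 (SE 1.00, adjusted p 0.012), or 12.9-fold on the pseudocount scale. Col9a3 had 10.22, 7.39 and 7.85 in KO, against 4.66, 4.67 and 5.90 in WT, a rise of 3.41 (SE 0.66, adjusted p 0.00036). Col9a1 had 11.39, 8.41 and 8.52 in KO, against 6.56, 6.79 and 7.88 in WT, a rise of 2.37 (SE 0.75, adjusted p 0.037). In each gene KO replicate 1 stood far above the other KO libraries, and all KO libraries stood above all WT libraries. Col11a1 had 11.01, 7.65 and 8.09 in KO, against 6.68, 6.19 and 7.56 in WT, a rise of 2.11 (SE 0.64, adjusted p 0.028). A second probe set gave 1.01 for Col9a1, not called, and 1.82 for Col9a3 and 2.18 for Col11a1, both called. A further Col9a3 probe set, with a mean signal of 15, gave -0.12 and was not called. Col9a3 was called without each library in turn, and Col2a1, Col9a1 and Col11a1 were not called without KO replicate 1 or without WT replicate 1 or 2. Col11a2, with 8.46, 5.99 and 6.77 in KO, against 5.67, 4.18 and 6.32 in WT, was not called (1.68, adjusted p 0.061), and the groups overlapped.

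Cartilage markers moved with these genes. The mean of 11 cartilage markers was 8.89, 7.31 and 7.18 in the KO libraries labelled E18.5, against 6.73, 6.63 and 7.11 in WT, again with KO replicate 1 highest, and 2 of 11 rose (Matn3 by 1.66 and Snorc by 1.80; list median 1.20). For 5 bone markers the mean was 7.71, 6.61 and 6.44 in KO, against 5.86, 5.94 and 5.90 in WT, and Ibsp rose by 3.08 and Dmp1 by 1.81. Their part in the result was not tested. Against WT E17.5, where Col2a1 had 6.24, 7.93 and 8.74, the difference was 2.51 for Col2a1 (SE 1.00, adjusted p 0.44) and 1.33 for Col9a3 (adjusted p 0.60). At the other ages no cartilage collagen gene was called between genotypes, and the largest difference outside E18.5 was -2.41 for Col2a1 at PND4. The plot of cartilage genes in the doubted libraries shows them with both WT ages.

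**Figure D5:**
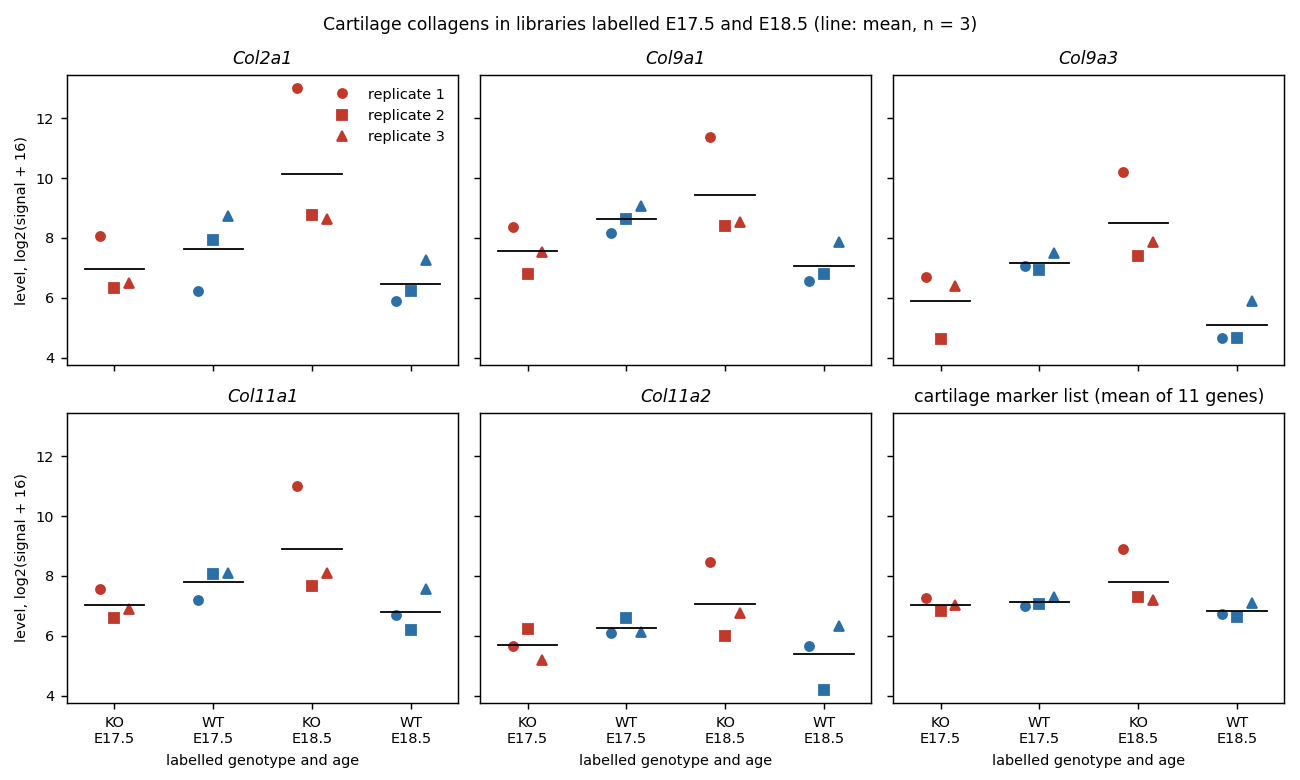
Log2 signal of Col2a1, Col9a1, Col9a3, Col11a1 and Col11a2 and the mean of 11 cartilage markers in each library labelled E17.5 or E18.5, in the order KO E17.5, WT E17.5, KO E18.5, WT E18.5. KO replicate 1 labelled E18.5 is the highest point in every panel, and every WT E17.5 library lies above every WT E18.5 library in Col9a1 and Col9a3.

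Of the other collagens, Col6a1, Col6a2 and Col6a3, whose chains form the beaded type VI microfibrils between cells and fibrils, rose before birth and fell after PND14. In WT Col6a3 had 13.71, 13.71 and 13.62 at E18.5, against 11.84, 12.39 and 11.49 at E13.5, a rise of 1.77. Col6a1 rose by 1.24 and Col6a2 by 1.09. The KO steps were 2.22 for Col6a3, 1.76 for Col6a1 and 1.17 for Col6a2, all called, and did not pass the test of a difference from WT. Between PND14 and PND42 Col6a1, Col6a2 and Col6a3 fell in KO by 0.79, 1.09 and 1.12, and in WT by 0.57, 0.72 and 0.60. With the Gapdh covariate this late step was not called for Col6a1 in either genotype or for Col6a3 in WT. The dim Col6a4 rose before birth too, by 1.38 in KO (-0.22 by a second probe set) and 1.20 in WT, but was not called after PND14 (-0.08 in KO, 0.78 in WT). The dim Col6a5 was not called before birth (-0.08 in KO, 0.68 in WT) and fell after PND14 by 1.23 in KO, with -0.38 in WT. Col6a1 fell in KO at E13.5 by 0.65 (SE 0.17, adjusted p 0.028), with 10.97, 10.73 and 11.02 in KO, against 11.33, 12.06 and 11.28 in WT.

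At E13.5 the fibril-associated Col12a1 and the network-forming Col8a2, a collagen of vessel walls and the cornea, were lower in KO too. Col12a1 had 9.30, 9.23 and 9.68 in KO, against 10.20, 11.02 and 9.97 in WT, and fell by 0.99 (SE 0.24, adjusted p 0.017). Col8a2 had 9.53, 9.01 and 9.38 in KO, against 9.76, 11.47 and 9.99 in WT, and fell by 1.10 (SE 0.30, adjusted p 0.043). WT replicate 2 was the highest library for Col12a1, Col8a2 and Col6a1, and none of the 3 calls held without it, or without KO replicate 1 or 2. In that library the bone marker mean was 8.74, against 6.4 and 6.70 in the other WT libraries and 6 to 6.19 in KO; cartilage markers were called for 0 of 11 between the genotypes (median -0.56), and their part in the result was not tested.

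In libraries labelled E18.5 both genes moved the other way. Col12a1 rose by 0.83 (SE 0.24, adjusted p 0.021), with 10.94, 9.80 and 10.11 in KO, against 9.30, 9.07 and 10 in WT, and Col8a2 by 1.06 (SE 0.30, adjusted p 0.017), with 9.43, 8.22 and 7.90 in KO, against 7.62, 7.03 and 7.72 in WT. The Col12a1 groups overlapped, KO replicate 1 was the highest library in both, and neither call held without it or without WT replicate 2. In WT, Col8a2 had fallen by 2.95 between E13.5 and E18.5 (SE 0.30, adjusted p 1e-11), and the KO and WT steps differed by 2.16 for Col8a2 (adjusted p 0.00058) and by 1.82 for Col12a1 (adjusted p 0.00032). For the fibril-associated Col16a1 the steps differed by 1.19 (adjusted p 0.0077), which was not called without WT E13.5 replicate 2.

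Col26a1 and Col25a1 had the widest ranges over the 66 libraries outside the cartilage and type IV genes. WT Col26a1 had 6.22, 4.62 and 6.31 at E18.5, against 9.82, 11.14 and 9.53 at E13.5, and fell by 4.45 (SE 0.44, adjusted p 5.9e-12). The KO step was -2.55 and was the single downward call among collagen genes in KO. Col25a1, a membrane-spanning collagen, had WT group means of 9.25 to 10.13 before birth and fell by 2.31 between PND0 and PND14 and by 1.73 between PND14 and PND42 in WT (SE 0.26, adjusted p 2.5e-06). In KO those steps were -2.84 and -1.67. A dimmer Col25a1 probe set gave 0.34 for the second WT step. Col13a1, also membrane-spanning, rose by 1.64 in WT before birth, and the fibril-associated Col14a1 by 1.70 in KO and 1.22 in WT.

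Between PND0 and PND14, 9 of 42 genes were called in WT, 2 higher and 7 lower (13.6% of probe sets; 6.27% higher and 7.38% lower), and 15 of 42 in KO, 8 higher and 7 lower (30.7% of probe sets; 14.7% higher and 16% lower), and the steps differed for 5 of 42 (7.61% of probe sets). With the Gapdh 3′ to 5′ ratio as a covariate, 8 genes in KO and 15 in WT were called, all lower. Besides the type IV genes above, the steps differed for Col17a1 by 2.08 (adjusted p 0.046), Col8a1 by 2.02 (adjusted p 0.047) and Col23a1 by 1.29 (adjusted p 0.012). Without WT PND14 replicate 2 none of these upward differences was called (0 higher and 2 lower in the family), and with the Gapdh ratio as a covariate 1 of the 5 differences was called, that of Col4a1. Between PND14 and PND42 the steps differed for 2 of 42, Col1a1 and Col15a1 (1.2% of probe sets).

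Col17a1, which anchors basal epithelial cells to their basement membrane, had 8.24, 8.91 and 9.07 in KO at PND14, against 7.87, 6.63 and 7.42 in WT, a rise of 1.43 (SE 0.48, adjusted p 0.049). All KO libraries were above all WT libraries. The mean of 7 oesophageal and basal epithelial markers was 7.05, 9.97 and 10.39 in KO, against 7.82, 8.67 and 9.80 in WT, and its part in the result was not tested. Col23a1, a membrane-spanning collagen, had 10.08, 10.33 and 10.42 in KO at PND14, against 9.68, 8.04 and 9.90 in WT, a rise of 1.07 (SE 0.24, adjusted p 0.0034). Neither call held without WT replicate 2 or with the Gapdh 3′ to 5′ ratio as a covariate, and that of Col17a1 not without WT replicate 3 or KO replicate 2 or 3. At PND3 Col23a1 had 8.85, 9.35 and 9.54 in KO, against 8.40, 8.42 and 7.96 in WT, a rise of 0.98 (SE 0.24, adjusted p 0.0052) with no overlap, which was not called without replicate 3 of either genotype. The other Col23a1 probe sets gave 0.49 and 0.59 at PND3, neither called. At PND14 they gave 0.62, which was called, and 0.49, which was not.

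Col20a1, a dim fibril-associated collagen with a mean signal of 85.8, was higher in KO in 9 of 11 ages. It had 7.52, 7.08 and 7.62 in KO at PND0, against 6.57, 6.43 and 6.30 in WT, a rise of 0.97 (SE 0.25, adjusted p 0.0059). At PND42 it had 7.19, 6.87 and 7.59 in KO, against 6.13, 6.59 and 6.41 in WT, a rise of 0.84 (SE 0.25, adjusted p 0.031). The groups did not overlap at either age. The PND0 call did not hold without KO replicate 3, nor the PND42 call without replicate 1 or 3 of either genotype. Other, dimmer Col20a1 probe sets gave 1.02, 1.46 and -0.04 at PND0, of which only the 1.46 was called. At PND42 they gave 0.39, 0.64 and -0.13, none called. Col16a1 rose by 0.94 in KO at PND1 (SE 0.21, adjusted p 0.0064), with 10.49, 10.48 and 10.06 in KO, against 8.79, 9.71 and 9.71 in WT. Without WT replicate 1, the low library, the difference was 0.64 (adjusted p 0.13). Col14a1 at PND2 was called lower by 0.77 (SE 0.23, adjusted p 0.034), although its 3 KO values of 10.41, 10.67 and 11.52 overlapped the WT values of 12.42, 10.99 and 11.51. Without WT replicate 1, the highest library, the difference was -0.38 (adjusted p 0.43), and without KO replicate 1 or 2 it was not called either. That WT library had an oesophageal and basal epithelial marker mean of 10.14, against 6.02 and 6.5 in the other WT libraries and 5.47 to 6.43 in KO, and the part of these markers was not tested. Col25a1 fell by 0.81 in KO at PND3 (SE 0.26, adjusted p 0.04), and its dimmer probe set gave 0.54; the call was kept when WT replicate 2 was left out and was lost without any of the other 5 libraries.

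The 20 genes called at no single age were Col3a1, Col5a3 and Col24a1 among the fibrillar genes, Col4a1, Col4a2, Col4a5, Col4a6 and Col7a1 of the basement membrane, Col9a2, Col10a1 and Col11a2 of cartilage, and Col6a2 to Col6a5, Col8a1, Col13a1, Col19a1, Col22a1 and Col26a1. Their largest genotype difference outside E18.5 was that of Col8a1, a partner of Col8a2 in network-forming collagen, at PND0. It had 7.97, 6.33 and 7.44 in KO, against 8.41, 8.25 and 8.70 in WT, a difference of -1.21 that missed the threshold although the groups did not overlap. At PND14 the order was the other way round, with 7.78, 8.47 and 8.44 in KO, against 7.52, 7.16 and 7.58 in WT (0.81, also not called). Of the 20, Col9a2, Col10a1, Col11a2, Col19a1, Col22a1, Col24a1, Col6a4 and Col6a5 had a mean signal under 100, where differences on this scale are understated.

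Because Nrf2 acts on DNA, the start regions of the collagen genes were searched for the core of its binding element, TGACNNNGC, on both strands. RefSeq windows (GRCm38.p6, 250 bases before to 50 after the start) were available for 33 of the 42 genes, in 36 windows. The core was found in 7 of the 36, and in 12.4% of all 32851 windows of that length. Each is shown with the bases on either side, 5′ to 3′ on the gene's strand, the core in capitals; in Col13a1 and Col6a5 it lies on the other strand. The stretches lie at chr10:61979084-61979122 (Col13a1, minus), chr3:145292356-145292394 (Col24a1, plus), chr8:11312716-11312754 (Col4a2, plus), chr10:76623453-76623491 (Col6a2, minus), chr9:105960640-105960678 (Col6a5, minus), chr9:108953431-108953469 (Col7a1, plus) and chr4:121039532-121039570 (Col9a2, plus).
Col13a1: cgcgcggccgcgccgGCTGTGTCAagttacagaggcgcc
Col24a1: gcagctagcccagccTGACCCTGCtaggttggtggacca
Col4a2: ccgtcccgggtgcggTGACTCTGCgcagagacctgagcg
Col6a2: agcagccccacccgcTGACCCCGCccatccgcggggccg
Col6a5: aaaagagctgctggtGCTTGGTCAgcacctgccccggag
Col7a1: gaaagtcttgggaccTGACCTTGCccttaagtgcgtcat
Col9a2: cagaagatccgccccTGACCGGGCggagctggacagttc

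A match is a description of letters, not a binding site. Of these 7 genes, Col13a1 had a genotype difference that depended on age (adjusted p 0.015), and none was called between KO and WT at any age. Col4a2 carries its core at position -74 from its start, outside the 78 bases it has in common with Col4a1. By the annotated starts, that position lies downstream of the Col4a1 start. Of other promoter letters, the GC box GGGCGG was found in 22 of 36 (35.7% of all windows), CCAAT in 13 of 36 (37.4%) and TATAAA in 5 of 36 (13.6%).

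Genes that process, degrade or bind collagen were counted against the same shares of probe sets. Their results at E17.5 and E18.5 use the doubted labels as given, without the exchange of WT age. Of 20 genes for collagen modification and folding, 0 were higher and 2 lower in KO at E13.5 (Creb3l1, a transcription factor for type I collagen in bone, by -0.81, and Colgalt1, a collagen galactosyltransferase, by -0.52; 1.53% of probe sets were called), and at E18.5 (8.74% of probe sets) 2 were higher (Crtap by 0.53, Colgalt1 by 0.46) and 2 lower (Tmem38b by -0.60, P4ha1 by -0.47). At PND42 (5.68% of probe sets) Creb3l1 and Colgalt1 were higher in KO, by 0.81 and 0.55. In WT 9 of the 20 fell and 1 rose between E13.5 and E18.5 (18.6% of probe sets lower and 16.4% higher), with a median of -0.43 against -0.07 over all genes; the falls included the prolyl hydroxylase genes P3h3 (-1.58), P4ha3 (-1.41) and P3h1 (-0.81), and Tmem38b rose by 1.86.

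At PND0, where Col4a4, Col5a2 and Col27a1 were lower in KO and 10.7% of probe sets were called, 2 of the 20 modification genes were higher and 4 lower, among them Plod2, a lysyl hydroxylase (-0.56), and P4hb, a subunit of prolyl hydroxylase (-0.35). Of 10 genes for procollagen cleavage and cross-linking, 2 were higher (the procollagen protease gene Adamts3 by 0.92 and the lysyl oxidase gene Lox by 0.84) and 3 lower (Pcolce2 by -0.87, Loxl1 by -0.68, Pcolce by -0.48). Of 11 breakdown genes, 2 were higher (Mmp8 by 1.15, Timp3 by 0.70) and 2 lower (the collagen uptake receptor gene Mrc2 by -0.92, Mmp14 by -0.57). Median differences at PND0 were -0.26, -0.39 and -0.06 for these 3 lists, against -0.03 over all genes.

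Mmp14, a membrane collagenase, was lower in KO at E13.5 by 1.04 (adjusted p 0.00019). Mmp13, a collagenase of cartilage and bone, was higher in KO libraries labelled E18.5 by 2.27. At that label the mean of the breakdown genes was 9.55 in KO replicate 1, and 8.83 and 8.85 in the other KO libraries. WT libraries had 8.76 to 8.92. Among 12 small leucine-rich proteoglycans and fibril partners, Fmod, fibromodulin, was higher there by 1.89 (adjusted p 8.6e-08) and Dpt and Fn1 lower by 1.07 and 0.50. Of 8 receptor genes, Ddr1 was lower by 0.61 at E18.5 and higher by 0.92 at PND42 in KO, and Itgb1 lower by 0.74 at PND42. The 16 other basement membrane genes, laminins, nidogens and their partners, had 0 calls between genotypes at E13.5, E17.5 and E18.5 (1.53%, 1.23% and 8.74% of probe sets). In WT 10 of them rose and 1 fell between E13.5 and E18.5 (median 0.70, with 16.4% of probe sets higher and 18.6% lower). Within the collagen family 5 of 9 basement membrane genes rose and 2 fell over that step.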

How the data were processed

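The deposited values were signal intensities, 1 per probe set and array, made by the authors in GCOS, which the submitters' processing notes list without a version. The file held 45101 probe sets in 66 arrays, and 0 sample columns were left unused. After 64 control probe sets were removed, the 45037 others were quantile-normalised over all arrays, log2(signal + 16) was taken, and limma (3.58.1, in R 4.3.3 with the data.table package, version 1.17.8) fitted 22 group means with an intensity trend and 44 residual degrees of freedom. Tests were two-sided, with Benjamini-Hochberg adjustment over all probe sets and a threshold of 0.05; a dependence on age was an F test. The script was tested on simulated data. Symbols came from the platform annotation: 34945 probe sets had 1 symbol, 932 several and 9160 none. Standard errors pool the spread over all groups, and precision is limited by 3 arrays per group, for which an exact permutation test could not go below 0.1.

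All members are covered by the rule; those past the threshold are named, with the largest difference of each collagen type, and up to 4 genes per pathway list. The members and lists were chosen with earlier results of these data known. Alternatives were the deposited scale, subtraction of array medians, a pseudocount of 64, a filter at a mean signal of 100, no intensity trend, array weights, a fit of the compared groups alone, a replicate block, the second brightest probe set, the Gapdh 3′ to 5′ ratio as a covariate, fewer ages, exchanged or other ages, and each library left out in turn. Figures were drawn with matplotlib 3.10.9, and tables read with pandas 2.3.3 in Python 3.11.15. Sequences and start sites are RefSeq's on GRCm38.p6.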

Additional observations from a re-analysis of the deposited data

Results flagged for a closer look

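The genotype difference depended on age for 17 collagen genes (F test over the 11 ages in limma, adjusted p). Among the basement membrane genes the adjusted p was 6.6e-06 for Col4a3, 1.5e-05 for Col15a1, 1.6e-05 for Col18a1 and 0.0029 for Col4a4. Of the fibrillar genes it was 2e-06 for Col1a1, 0.0061 for Col27a1 and 0.043 for Col5a1, and of the cartilage genes 0.012 for Col9a3 and 0.04 for Col2a1. Of the others it was 0.0013 for Col12a1, 0.0024 for Col20a1, 0.0035 for Col16a1, 0.0079 for Col8a2, 0.015 for Col13a1, 0.017 for Col23a1, 0.027 for Col6a1 and 0.037 for Col14a1. By an unadjusted p under 0.05 the count was 21 of 42.

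The step between E13.5 and E18.5 differed between KO and WT, as KO step minus WT step on the log2 scale, by 4.66 for Col2a1, 4.39 for Col9a3, 3.6 for Col1a1, 2.87 for Col11a1, 2.82 for Col11a2, 2.16 for Col8a2, 1.82 for Col12a1, 1.82 for Col15a1, 1.22 for Col5a1, 1.19 for Col16a1 and 1.03 for Col18a1, and by -2.93 for Col4a3 and -2.14 for Col4a4. All of these use the KO libraries labelled E18.5. Between PND0 and PND14 it differed by 2.08 for Col17a1, 2.02 for Col8a1, 1.43 for Col4a3, 1.29 for Col23a1 and -0.49 for Col4a1, and between PND14 and PND42 by 1.88 for Col1a1 and 1.21 for Col15a1.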

How the results depend on the processing

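Precision was limited by 3 arrays per group, by single libraries, by the doubted KO labels at E17.5 and E18.5, and by the separate scale of PND1 to PND4. Of 164 called member results, the direction and call were kept in 151 on the deposited scale, 146 with array medians subtracted, 162 with a pseudocount of 64, 151 of 151 tested with the filter on dim probe sets, 150 without an intensity trend, 152 with array weights, 98 of 161 with the compared groups alone, 122 with the Gapdh ratio as a covariate and 66 of 116 with the second brightest probe set. The cause of the losses was not tested, except that fewer genes (27) had a second probe set and fewer samples entered the fit of the compared groups alone.

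Counts of collagen genes called follow, with the count of the text in brackets. On the deposited scale they were 5 (3) for the average over ages, 0 higher and 5 lower, 0 (2) for KO minus WT at E17.5, 4 (2) at PND14, and 5 (3) in KO and 4 (7) in WT for PND4 minus PND1. With array medians subtracted they were 3 (5) at E13.5, 1 (2) at E17.5, 0 (1) at PND2, 1 (2) at PND3 and 5 (2) at PND14. The filter gave 2 (1) at PND2, 4 (2) at PND14 and 5 (3) for PND4 minus PND1 in KO. No intensity trend gave 1 (2) at PND3, 1 (2) at PND14 and 2 (5) for the difference of steps PND14 minus PND0. Array weights gave 9 (3) for the average, 3 (5) at E13.5, 7 (2) at E17.5, 10 (4) at PND0, 2 (1) at PND1, 0 (1) at PND2, 4 (2) at PND14, 14 (8) for age from PND1 to PND4 in WT, and 7 (3) in KO and 11 (7) in WT for PND4 minus PND1.

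With the compared groups alone the counts were 0 (5) at E13.5, 6 (2) at E17.5, 4 (12) at E18.5, 0 (1) at PND1, 0 (1) at PND2, 1 (0) at PND4 and 0 (2) at PND14. For steps they were 5 (13) for the difference of E18.5 minus E13.5, 11 (3) in KO and 13 (7) in WT for PND4 minus PND1, 1 (9) in WT and 0 (5) for the difference of PND14 minus PND0, and 0 (14) in WT and 0 (2) for the difference of PND42 minus PND14. The second brightest probe set gave 11 (17) for dependence on age, 2 (5) at E13.5, 1 (2) at E17.5, 0 (1) at PND1, 2 (1) at PND2, 0 (4) at PND42, 4 (8) for age from PND1 to PND4 in WT, 7 (16) in KO, 19 (29) in WT and 8 (13) for the difference of E18.5 minus E13.5, 4 (7) for PND4 minus PND1 in WT, 9 (15) in KO, 5 (9) in WT and 2 (5) for the difference of PND14 minus PND0, and 9 (14) in WT and 0 (2) for the difference of PND42 minus PND14. The Gapdh ratio gave 0 (2) at PND14, 8 (15) in KO, 15 (9) in WT, all lower, and 1 (5) for the difference of PND14 minus PND0, and 6 (15) for PND42 minus PND14 in KO.

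Without E13.5 the average gave 6 (3), without E17.5 and E18.5 the dependence on age gave 10 (17), and PND1 to PND4 alone gave 5 (3) and 1 (17). The KO libraries labelled E17.5 against WT E18.5 gave 0 (2), and those labelled E18.5 against WT E17.5 gave 0 (12). PND0 minus E15.5 in place of E18.5 minus E13.5 gave 18 (29) in WT and 1 (13) for the difference.

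Some values changed direction. With the second probe set Col25a1 gave 0.54 for KO minus WT at PND3 and 0.34 for PND42 minus PND14 in WT, Col6a4 -0.22 for E18.5 minus E13.5 in KO, Col4a5 -0.01 for PND14 minus PND0 in WT and 0.1 for PND42 minus PND14 in KO, Col4a3 -0.27 for PND14 minus PND0 in KO, and Col1a1 -0.16 for the difference of PND42 minus PND14. With the Gapdh ratio PND14 minus PND0 in KO was -1.1 for Col23a1, -0.67 for Col4a3, -0.58 for Col4a4 and -0.53 for Col6a2. Col18a1 was 0 between KO labelled E17.5 and WT E18.5. For PND0 minus E15.5 in KO Col12a1 was -0.34, Col15a1 -1.13, Col1a1 -0.69 and Col5a3 -0.02, and in WT Col12a1 was 0.06, Col14a1 -0.34, Col25a1 -0.23, Col6a4 -0.06 and Col8a1 0.89. For its difference between KO and WT Col11a1 was -0.55, Col11a2 -0.52, Col12a1 -0.41, Col15a1 -0.03, Col16a1 -0.19, Col18a1 -0.05, Col2a1 -1.4, Col5a1 -0.16, Col8a2 -0.46 and Col9a3 -0.27.

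With each library left out in turn, counts ranged from 3 to 6 for the average (6 without WT PND14 replicate 2) and 14 to 22 for the dependence on age. For KO minus WT they ranged from 1 (without WT replicate 2) to 10 (without WT replicate 3) at E13.5, 0 to 0 at E15.5, 0 to 1 at E17.5, 5 (without KO replicate 1) to 15 at E18.5, 3 to 6 at PND0, 0 to 1 at PND1, 0 to 4 (without KO replicate 3) at PND2, 0 to 2 at PND3, 0 to 0 at PND4, 1 to 8 (without WT replicate 1) at PND14 and 2 to 4 at PND42. For age in WT they were 30 to 35 over 7 ages and 6 to 11 from PND1 to PND4. For E18.5 minus E13.5 they were 15 to 17 in KO, 23 to 28 in WT and 8 to 18 for the difference; for PND4 minus PND1, 3 to 3, 5 to 6 and 0 to 0; for PND14 minus PND0, 10 to 17, 6 to 12 and 1 to 8; for PND42 minus PND14, 13 to 15, 10 to 17 and 0 to 5.

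Replicate numbers did not pair the samples: over 33 pairs of the same number the correlation of deviations ran from -0.18 to 0.21, 1 was over 0.1, and 14 libraries correlated best with their own number. With the replicate number as a block the counts were 3 (5) at E13.5, 12 (17) for the dependence on age, 5 (4) at PND0 and 3 (4) at PND42.

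Scaling moved the share of called probe sets that were higher. For the average over ages 13.8% were higher on the deposited scale and 69.1% with array medians subtracted, against 50.1% in the text's fit. On the deposited scale the share at E13.5, E17.5, PND2, PND3 and PND4 was 24.9%, 56.6%, 16%, 4.37% and 26.6% (39.8%, 68.8%, 45.6%, 44.1% and 56.9% in the text's fit), for PND4 minus PND1 in KO and the difference 29.2% and 25% (50.6% and 53.6%), for E18.5 minus E13.5 in KO 60.6% (48.1%) and for PND14 minus PND0 in WT 35.6% (45.9%). With array medians subtracted it was 51.1%, 85.8%, 66.4%, 64%, 32.5% and 52.6% at E13.5, E17.5, E18.5, PND2, PND3 and PND14 (39.8%, 68.8%, 53.7%, 45.6%, 44.1% and 40.1%), and 27.8% in KO and 33.4% in WT for E18.5 minus E13.5 (48.1% and 46.9%), 40.7% for PND4 minus PND1 in WT (51.4%), 63.2% in KO and 70.8% in WT for PND14 minus PND0 (47.9% and 45.9%), and 34% in KO and 39.4% in WT for PND42 minus PND14 (51.2% and 49.8%). The median of all probe sets moved to -0.2 at PND3 on the deposited scale, and with array medians subtracted to 0.12 at PND2, to -0.2 in KO and -0.19 in WT for E18.5 minus E13.5, and to 0.16 in KO and 0.12 in WT for PND14 minus PND0.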
